A study of Mus musculus with 12 samples.

Results

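The 10 genes described here are inducible acute phase genes of the liver, followed across every library of the series: Saa1, Saa2, Saa3, Lcn2, Orm1, Orm2, Hp, Itih3, Itih4 and Socs3. They were chosen by name, as 10 of the 50499 genes in the table of counts, and 10 of 10 were among the 11934 genes that passed the filter on low counts. The samples were livers of male C57Bl/6NCrl mice from a study of diet-induced steatohepatitis, 12 libraries in 4 groups of 3. All mice received AAV8, an adeno-associated virus given by tail vein, with the TBG promoter, which is active in hepatocytes. Chow null mice ate chow with normal water and carried the empty vector (genotype WT in the labels). Chow siAATF mice ate the same and carried a vector to silence Aatf (genotype KD). Western null and Western siAATF mice carried the same vectors on a Western diet with sugar water, so food and drink cannot be told apart. Diets began at 6 weeks of age, vectors were given after 12 weeks, and livers were taken 12 weeks after that.

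During an acute phase response, cytokines such as IL-6 and IL-1 reach the hepatocyte, and the liver changes which plasma proteins it makes. IL-6 acts through its receptor, JAK kinases and the transcription factor STAT3, while IL-1 and TNF act through NF-kB, and C/EBP factors bind many of the same promoters. Positive acute phase proteins such as serum amyloid A are secreted in larger amounts, and negative ones such as albumin in smaller amounts.

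Libraries held between 1646853 and 13469819 counts, and the 18S ribosomal RNA gene took 0.871% to 50.8% of it. Levels are given as CPM, counts divided by the scaled size of their library, and 3 counts, used as the floor of detection, stood at 0.185 to 1.69 CPM. The labels number the replicates and do not say that each is a separate mouse, so a p-value here reflects only how far these samples differ, which may be technical. Aatf, the target of the silencing vector, was no lower under the siAATF vector than under the null vector: its range was 27.0 to 28.2 CPM in Western siAATF and 21.1 to 30.0 CPM in Western null (log2 fold change 0.06 ± 0.25 SE, quasi-likelihood test of edgeR, adjusted p = 0.953). On chow its range was 24.6 to 40.5 CPM in siAATF and 26.5 to 36.8 CPM in null (0.11 ± 0.24, edgeR adjusted p = 1). The vector comparisons below therefore compare libraries by their labels. Throughout, an adjusted p is corrected by Benjamini-Hochberg over all genes of its comparison, and a gene passed, rose or fell where it was under 0.05. Hepatocyte markers, of which 14 are in the table, summed to 57300 to 117300 CPM over the libraries, and albumin (Alb) alone held 21930 to 59780 CPM. In bulk liver RNA, fewer cells of a type and less RNA per cell cannot be told apart.

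Western siAATF replicates 1 and 2 stood apart from replicate 3 and from the other groups for most of these genes, so each library is given. Library numbers are the replicate numbers of the labels. Results of the 10 genes and of the gene lists that rest on these 3 libraries are given with and without them. Leaving out Western siAATF 1 and 2 keeps Western siAATF 3 as the only library of its group.

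Saa1 and Saa2 encode the serum amyloid A proteins that the mouse liver releases into plasma, where they travel on high-density lipoprotein. They lie side by side on chromosome 7 (GRCm39, Saa1 at 46389921 to 46392605 on the minus strand, Saa2 at 46401257 to 46403737 on the plus strand). Saa1 held 106, 71.7 and 65.2 CPM in chow null 1 to 3, and 45.0, 107 and 310.4 CPM in chow siAATF 1 to 3. In Western null it held 191, 146 and 284 CPM, and in Western siAATF 8506, 5138 and 61.2 CPM. Thus Western siAATF 1 and 2 lay far above all other libraries, and Western siAATF 3 lay below every library but chow siAATF 1. Saa2 held 46.9, 23.2 and 15.1 CPM in chow null and 9.79, 38.3 and 59.8 CPM in chow siAATF. Its Western null libraries held 79.5, 51.5 and 102 CPM, and its Western siAATF libraries 4878, 4442 and 26.0 CPM. For both genes the Western null libraries lay above all chow null libraries, and the chow siAATF libraries spread on both sides of chow null.

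The promoters of Saa1 and Saa2 are printed because these 2 genes had the largest fold changes in Western siAATF and the highest likeness of any pair within groups, as given below. Each is the 250 bases before the start of the gene, from RefSeq on GRCm38.p6, written along the gene's own strand. Saa1 is chr7:46742981-46743230 on the minus strand and Saa2 is chr7:46751583-46751832 on the plus strand. Capitals mark a match to the letters TTGCNNAA, a form of the C/EBP motif, searched on both strands.
Saa1: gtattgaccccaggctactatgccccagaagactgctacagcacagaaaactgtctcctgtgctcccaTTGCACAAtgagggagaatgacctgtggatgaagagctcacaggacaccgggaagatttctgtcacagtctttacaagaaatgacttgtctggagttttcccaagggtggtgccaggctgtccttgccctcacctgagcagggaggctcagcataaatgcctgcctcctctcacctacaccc
Saa2: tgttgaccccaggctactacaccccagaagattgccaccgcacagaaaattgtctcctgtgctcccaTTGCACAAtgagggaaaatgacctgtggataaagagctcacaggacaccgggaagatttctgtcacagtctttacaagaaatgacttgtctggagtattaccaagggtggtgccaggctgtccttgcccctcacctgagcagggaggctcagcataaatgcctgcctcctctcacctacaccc
The 2 promoters were identical at 238 of 251 aligned columns (94.8%). The match began at position -182 in Saa1 and -183 in Saa2, counted back from the start. Over all 32851 promoters of that length in the RefSeq table, 9.56% held these letters on either strand.

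Reads of such close copies could have been split between them or dropped in counting, so the levels of each alone are uncertain. The longest coding transcripts of Saa1 and Saa2 in GENCODE were identical at 87.3% of 655 aligned columns, with a longest shared run of 76 bases. Saa1 held 1.74 and 1.16 counts per Saa2 count in Western siAATF 1 and 2, and 2.36 in Western siAATF 3. In the other 9 libraries the ratio ran from 2.26 to 5.19, so Saa2 made up more of the pair where both were high.

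Saa3 encodes a serum amyloid A that macrophages and fat cells also make in mice. It lies beside the same pair (chromosome 7, 46361422 to 46365100, minus strand) and was the least abundant of the 10 genes in chow null, at 0.524 CPM per kilobase of counted span. Its counts were low, 3 to 132 reads per library. Saa3 held 1.83, 1.69 and 2.26 CPM in chow null and 7.67, 2.59 and 6.27 CPM in chow siAATF. It held 8.89, 8.86 and 11.9 CPM in Western null and 24.8, 23.6 and 10.6 CPM in Western siAATF. All 9 other libraries lay above the chow null libraries, and only Western siAATF 1 and 2 lay above Western null.

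Lcn2 encodes lipocalin 2, which binds bacterial siderophores and so keeps iron from bacteria (chromosome 2, 32274649 to 32277751, minus strand). It held 10.9, 13.0 and 19.1 CPM in chow null and 1.59, 7.63 and 62.9 CPM in chow siAATF. Western null libraries held 96.3, 108 and 87.3 CPM. Western siAATF libraries held 684, 634 and 10.6 CPM. Western null was the tightest group and lay above all 6 chow libraries, whereas Western siAATF 3 lay just under the lowest chow null library.

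Orm1 and Orm2 encode orosomucoids, the alpha-1-acid glycoproteins, which carry lipophilic molecules and drugs in plasma. They are neighbours on chromosome 4 (Orm1 at 63262793 to 63266400 and Orm2 at 63280543 to 63284114, both on the plus strand). Orm1 held 530.1, 265 and 291 CPM in chow null and 213, 289 and 518 CPM in chow siAATF. It held 332, 314 and 347 CPM in Western null and 1541, 2000 and 174 CPM in Western siAATF. Chow null, chow siAATF and Western null overlapped, and Western siAATF 3 was the lowest of all 12 libraries. Orm2 held 31.7, 12.4 and 18.5 CPM in chow null and 7.94, 7.02 and 101 CPM in chow siAATF. It held 59.7, 35.4 and 52.8 CPM in Western null and 710.5, 976 and 7.04 CPM in Western siAATF. Orm2 was thus spread more widely than Orm1 in every group, and chow siAATF 3 exceeded all Western null libraries.

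The 2 genes share 91.0% of 775 aligned transcript columns, with a run of 141 identical bases, and another copy, Orm3, matched them at 86.1% (Orm1) and 88.0% (Orm2). Their separate counts are uncertain for the same reason as those of Saa1 and Saa2. Orm1 held 2.17 and 2.05 counts per Orm2 count in Western siAATF 1 and 2, 24.8 in Western siAATF 3, and 5.11 to 41.2 in the other 9 libraries. Orm2 thus made up more of the pair in the 2 libraries where both were high. The promoter of Orm2 (chr4:63362199-63362448, GRCm38.p6, plus strand, RefSeq) is shown for its match to the C/EBP letters at -120 to -113, in capitals.
Orm2: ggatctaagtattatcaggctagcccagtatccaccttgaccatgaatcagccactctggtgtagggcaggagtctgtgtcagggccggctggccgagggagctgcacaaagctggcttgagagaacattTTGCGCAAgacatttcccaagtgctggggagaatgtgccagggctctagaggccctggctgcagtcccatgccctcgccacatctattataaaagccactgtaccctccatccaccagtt
Among the 8 members with an entry in the promoter table, 5 held these C/EBP letters (Saa1, Saa2, Saa3, Lcn2 and Orm2), beside 9.56% of all promoters. The promoters of Saa1 and Saa2 are near copies (94.8% identical) with the same matched letters, so their matches are not independent.

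Hp encodes haptoglobin, which binds free haemoglobin (chromosome 8, 110301760 to 110305804, minus strand). It was the most abundant of the 10 genes, at 831 CPM per kilobase of span in chow null. Hp held 3294, 4091 and 2698 CPM in chow null and 2505, 2497 and 8131 CPM in chow siAATF. It held 3992, 3315 and 4258 CPM in Western null and 7857, 6628 and 3706 CPM in Western siAATF. Hp was the 1 member whose highest library was not a Western siAATF library: chow siAATF 3 exceeded both.

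Itih3 and Itih4 encode heavy chains of the inter-alpha-trypsin inhibitor family. They are neighbours on chromosome 14 (Itih3 at 30630529 to 30645748 on the minus strand, Itih4 at 30608433 to 30623943 on the plus strand). Itih3 held 1375, 1253 and 1141 CPM in chow null and 1235, 894 and 1187 CPM in chow siAATF. Western null libraries held 699, 676 and 674 CPM, and Western siAATF libraries 2741, 3216 and 799 CPM. Every Western siAATF library lay above every Western null library, although Western siAATF 3 was still below all 6 chow libraries. Itih4 held 2696, 2464 and 2130.0 CPM in chow null and 1975, 2263 and 2307 CPM in chow siAATF. It held 1545, 1398 and 1555 CPM in Western null and 5231, 6709 and 1114 CPM in Western siAATF. Both genes were lower in all Western null libraries than in any chow library, and the 3 Western null libraries differed little among themselves (coefficient of variation 2.01% for Itih3 and 5.86% for Itih4).

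Socs3 encodes a suppressor of cytokine signalling that STAT3 induces and that blocks the shared IL-6 family receptor in return (chromosome 11, 117856905 to 117860192, minus strand). It was counted with 8 to 136 reads per library. Socs3 held 7.89, 5.65 and 6.18 CPM in chow null and 5.03, 3.82 and 3.55 CPM in chow siAATF. It held 3.95, 7.16 and 6.20 CPM in Western null and 30.1, 13.8 and 4.84 CPM in Western siAATF. The 2 high Western siAATF libraries differed from each other more than for any other member.

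The promoters of Itih4 (chr14:30886226-30886475, plus strand) and Socs3 (chr11:117969367-117969616, minus strand), both from RefSeq on GRCm38.p6, are shown because they were the 2 that held the STAT letters TTCNNNGAA, in capitals. The letters read the same on both strands in this pattern.
Itih4: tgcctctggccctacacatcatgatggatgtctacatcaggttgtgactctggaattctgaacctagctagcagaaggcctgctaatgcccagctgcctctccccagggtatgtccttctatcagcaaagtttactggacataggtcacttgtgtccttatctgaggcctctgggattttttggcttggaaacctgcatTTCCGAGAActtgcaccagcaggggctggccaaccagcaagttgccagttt
Socs3: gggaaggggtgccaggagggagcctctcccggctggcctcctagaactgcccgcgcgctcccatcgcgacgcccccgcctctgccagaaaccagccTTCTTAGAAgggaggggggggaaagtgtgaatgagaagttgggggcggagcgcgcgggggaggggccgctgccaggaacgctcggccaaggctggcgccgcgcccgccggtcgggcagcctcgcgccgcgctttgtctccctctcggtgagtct
The match lay at -51 to -43 in Itih4 and at -154 to -146 in Socs3, and 7.02% of all promoters in the table held one. None of the 8 promoters held the NF-kB motif that was searched on both strands, against 3.86% of all promoters, and none held both the STAT and the C/EBP letters. These are matches of letters and show no binding.

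**Figure D1:**
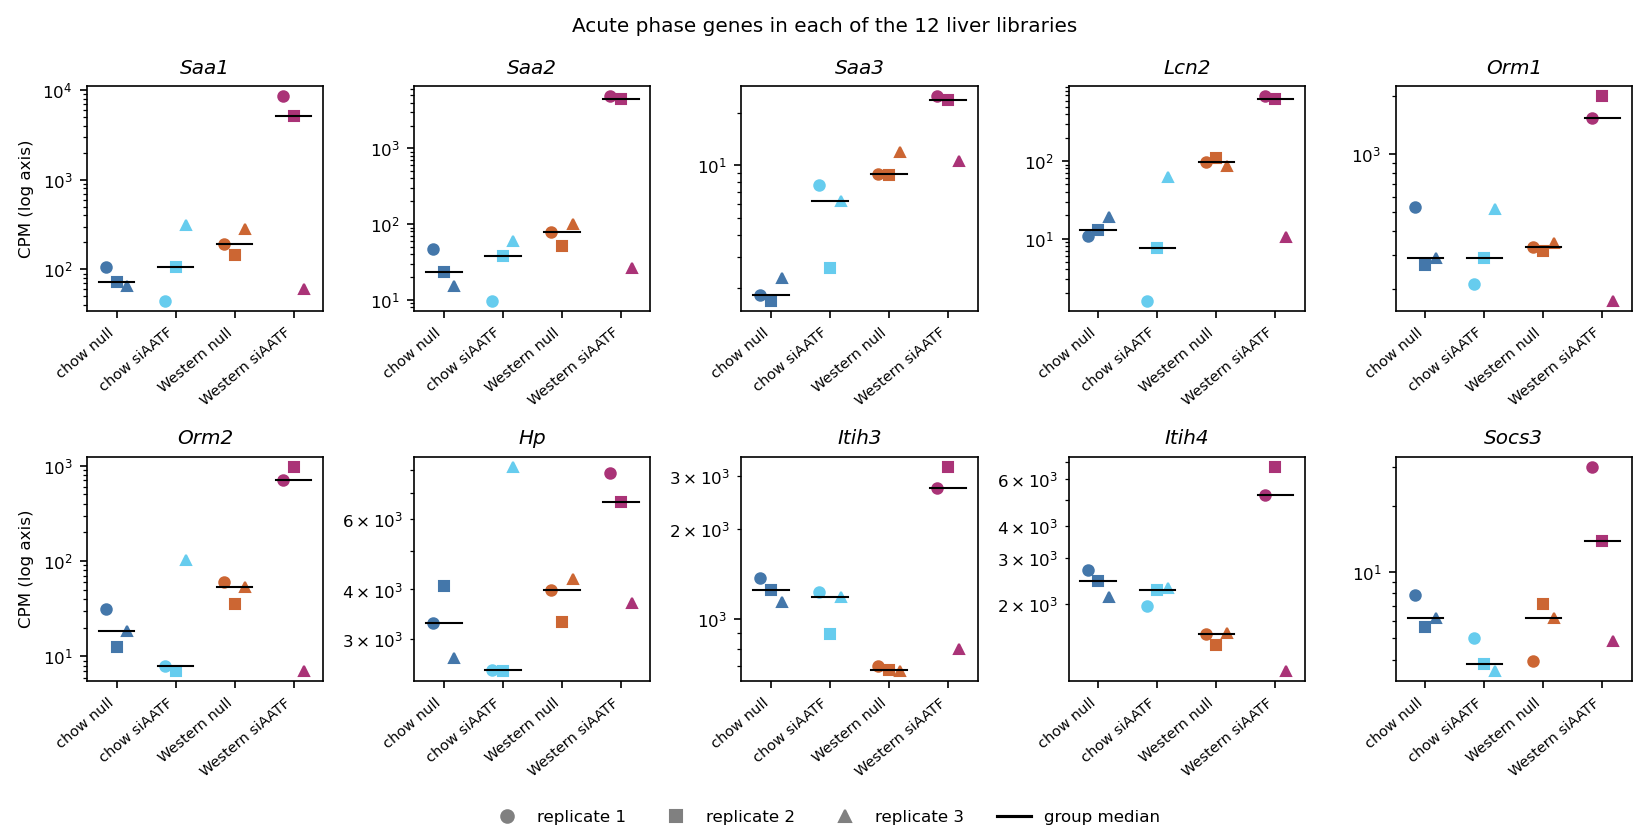
Level of each of the 10 genes in the 12 libraries, in CPM on a log axis that differs between panels. Symbols give the replicate number and lines the median of each group. Western siAATF 1 and 2 sit above the other 10 libraries in all panels but that of Hp, and Western siAATF 3 is the lowest of its group in every panel.

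Per kilobase of counted span, the mean levels in chow null ran from Hp (831 CPM per kilobase) through Itih4 (157), Orm1 (100.4), Itih3 (82.6), Saa1 (30.1), Saa2 (11.4), Orm2 (5.84), Lcn2 (4.61) and Socs3 (2.00) to Saa3 (0.524). Neighbours in this order whose library ranges overlapped were Itih4 and Orm1, Orm1 and Itih3, Saa2 and Orm2, and Orm2 and Lcn2. In Western siAATF the order of means differed, with Saa1 (1701), Hp (1499) and Saa2 (1256) first. There the ranges of Saa1 (22.8 to 3168) and Hp (916 to 1942) overlapped, so no order between them can be read. Summed over the 10 genes, chow null libraries held 8101, 8201 and 6387 CPM, and chow siAATF libraries 6004, 6110 and 12690 CPM. Western null libraries held 7007, 6060 and 7377 CPM. Western siAATF libraries held 32200, 29780 and 5914 CPM, so the first 2 carried more than 2 times the sum of any other library and Western siAATF 3 the smallest sum of all.

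The first comparison asked what the Western diet did under the null vector. Saa3 rose 4.99-fold in Western null against chow null, from 1.93 ± 0.298 to 9.87 ± 1.72 CPM (SD, n = 3 each). It was 1 of 10 members that passed at an adjusted p under 0.05, and 13.2% of all genes tested passed in this comparison (6.44% higher). The fitted log2 fold change of Saa3 was 2.32 ± 0.45 SE (quasi-likelihood test of edgeR, adjusted p = 0.00356). Lcn2, Saa2, Saa1 and Orm2 had all 3 Western null libraries above all 3 chow null libraries, as did 17.7% of genes tested, yet did not pass. Their log2 fold changes were 2.74 ± 1.43 for Lcn2 (adjusted p = 0.248), 1.45 ± 1.32 for Saa2 (0.521), 1.35 ± 1.25 for Saa1 (0.524) and 1.20 ± 1.45 for Orm2 (0.632), in the same edgeR test. Itih3 and Itih4 had all Western null libraries below all chow null libraries, as did 17.0% of genes, with log2 fold changes of -0.88 ± 0.36 (edgeR adjusted p = 0.121) and -0.70 ± 0.42 (0.289). Orm1 (-0.13 ± 0.65), Hp (0.20 ± 0.41) and Socs3 (-0.18 ± 0.48) overlapped between the groups. The median log2 fold change of the 10 genes was 0.70, against -0.03 over all genes tested.

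These standard errors come from a fit in which all 4 groups share 1 spread. In a fit of chow null and Western null alone, 7 members passed, beside 17.0% of 11730 genes tested: Saa1, Saa2, Saa3, Lcn2 and Orm2 were higher, and Itih3 and Itih4 lower (edgeR adjusted p from 3.89e-06 for Lcn2 to 0.0304 for Itih4). With Western siAATF 3 left out, Itih3 (edgeR adjusted p = 0.00512) and Itih4 (0.0208) passed beside Saa3, as did 18.2% of all genes in that fit. Leaving out the 4 libraries in which the 18S gene held over 25% of counts kept chow null 3 as the only chow null library. The log2 fold change of Saa3 was then 2.18.

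Markers of other liver cells moved with the same comparison. Of 16 macrophage markers, 15 were tested, and 10 rose and 1 fell in Western null, with a median log2 fold change of 1.58. They summed to 310.0 to 502 CPM in chow null and 842 to 1356 CPM in Western null, so the groups did not overlap. Those with the smallest adjusted p were Gpnmb, Mmp12, Trem2 and Cd68. Gpnmb, Trem2 and Mmp12 are known from macrophages of fatty tissue. Gpnmb held at most 0.457 CPM in chow null and 43.0 to 51.9 CPM in Western null (edgeR adjusted p = 6.65e-07). Mmp12 held at most 0.0871 CPM and 19.8 to 27.2 CPM (5.82e-06), and Trem2 at most 0.174 CPM and 15.8 to 21.5 CPM (1.59e-05). Cd68 rose by 2.15 on the log2 scale (0.00386), and Timd4, a marker of resident Kupffer cells, fell by 2.31 (0.0234).

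Of 6 cholangiocyte markers tested, 4 rose (Spp1, Tspan8, Prom1 and Epcam), and the list summed to 23.1 to 35.0 CPM in chow null and 103 to 232 CPM in Western null. Spp1, osteopontin, which macrophages make as well, rose by 3.77 (edgeR adjusted p = 0.000241). Of 11 stellate cell and endothelial markers, 7 rose, first among them by adjusted p Col3a1, Lyve1, Pdgfrb and Col1a1, and sums went from 353 to 463 CPM up to 1251 to 1578 CPM. Of 14 hepatocyte markers, 4 fell (Serpina1e, Tat, Hnf4a and Pck1), with sums of 88850 to 117300 CPM in chow null and 63560 to 70650 CPM in Western null. An unadjusted p under 0.05 was reached by 3399 of 11934 genes tested in this comparison (edgeR). None of 6 neutrophil markers tested passed (0 at an unadjusted p under 0.05), and none of 2 adipocyte and mesothelial markers (1 at an unadjusted p under 0.05, edgeR). The part of these cells in the rise of Saa3 was not tested.

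The second comparison concerned the silencing vector on the Western diet. Itih3 rose 3.30-fold in Western siAATF against Western null, from 683 ± 13.7 to 2252 ± 1281 CPM (SD, n = 3 each), with a log2 fold change of 1.72 ± 0.37 (quasi-likelihood test of edgeR, adjusted p = 0.0373). It was 1 of 10 members that passed, and 0.871% of all genes tested passed (0.310% higher). Its libraries did not overlap between the groups, as for 7.69% of genes higher in this way. Saa1 and Saa2 had larger fitted changes that did not pass, at 4.46 ± 1.40 (edgeR adjusted p = 0.270) and 5.32 ± 1.53 (0.223). Orm2 stood at 3.52 ± 1.53 (0.460), Lcn2 at 2.19 ± 1.36 (0.642) and Orm1 at 1.90 ± 0.67 (0.301). Itih4 had 1.54 ± 0.43 (0.134), Socs3 1.50 ± 0.47 (0.198), Saa3 0.99 ± 0.39 (0.344) and Hp 0.65 ± 0.41 (0.622). In these 9 genes Western siAATF 3 lay within or below the Western null range, so the groups overlapped. All 10 fold changes were positive, as were 55.4% of those of all genes. An unadjusted p under 0.05 was reached by 8 members and by 10.7% of all genes, and the median log2 fold change was 1.81 against 0.06 over all genes.

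This comparison turned on which Western siAATF libraries entered. Without Western siAATF 3, 6 members passed, beside 3.34% of all genes: Saa1 (log2 fold change 5.02, edgeR adjusted p = 0.0058), Saa2 (5.88, 0.00213), Orm1 (2.41, 0.000186), Itih3 (2.11, 1.20e-05), Itih4 (1.98, 2.16e-05) and Socs3 (1.87, 0.00677). Without Western siAATF 1 and 2, no member passed and 8 of 10 log2 fold changes turned negative, down to -3.20 for Lcn2. Itih3 then stood at 0.23 (edgeR adjusted p = 0.797) and Saa3 at 0.07 (0.980). The call of Itih3 was also lost on leaving out any 1 of Western siAATF 1 or 2, a Western null library, a chow siAATF library or chow null 3 (log2 fold change 1.38 to 1.73, edgeR adjusted p from 0.0537 to 0.202).

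Macrophage markers summed to 1214, 894 and 496 CPM in Western siAATF and to 842 to 1356 CPM in Western null, so the 2 libraries with high acute phase levels lay within the Western null range. Of 15 tested, 3 fell and none rose (median log2 fold change -0.45): Gpnmb (edgeR adjusted p = 8.39e-06), Mmp12 (0.000606) and Trem2 (0.0102). Gpnmb held 0.885, 0.681 and 0.440 CPM in Western siAATF 1 to 3, Mmp12 0.663, 2.04 and 0 CPM, and Trem2 3.98, 1.59 and 1.76 CPM. All 3 were thus low in each Western siAATF library, and all 3 passed without Western siAATF 3 and without Western siAATF 1 and 2. Timd4 passed as higher without Western siAATF 3.

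Cholangiocyte markers summed to 28.5, 46.3 and 25.1 CPM in Western siAATF, all under Western null, and 1 of 6 passed: Spp1 fell by 2.64 (edgeR adjusted p = 0.0107), and passed in both reduced fits. Stellate cell and endothelial markers summed to 773, 480.4 and 842 CPM, also under Western null, with 0 of 11 passing, 5 at an unadjusted p under 0.05 and a median log2 fold change of -0.74 (edgeR). Without Western siAATF 3, 2 of these passed as lower (Dcn and Pdgfrb), and without Western siAATF 1 and 2 none. Hepatocyte markers summed to 63720, 74620 and 57300 CPM, and 1 of 14 rose. That was Serpina1e, a copy of alpha-1 antitrypsin, with 1514, 1465 and 93.8 CPM against 33.1 to 43.0 CPM in Western null (edgeR adjusted p = 0.0163), and it passed in both reduced fits. Adipocyte and mesothelial markers summed to 0 to 1.31 CPM in chow null, at least 3.34 CPM in chow siAATF and 6.42 to 7.50 CPM in Western null. They summed to 12.8, 6.13 and 106.5 CPM in Western siAATF, where 0 of 2 passed (1 at an unadjusted p under 0.05, edgeR), and Cfd passed as higher without Western siAATF 1 and 2. The part of these lists in the levels of the 10 genes was not tested.

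**Figure D2:**
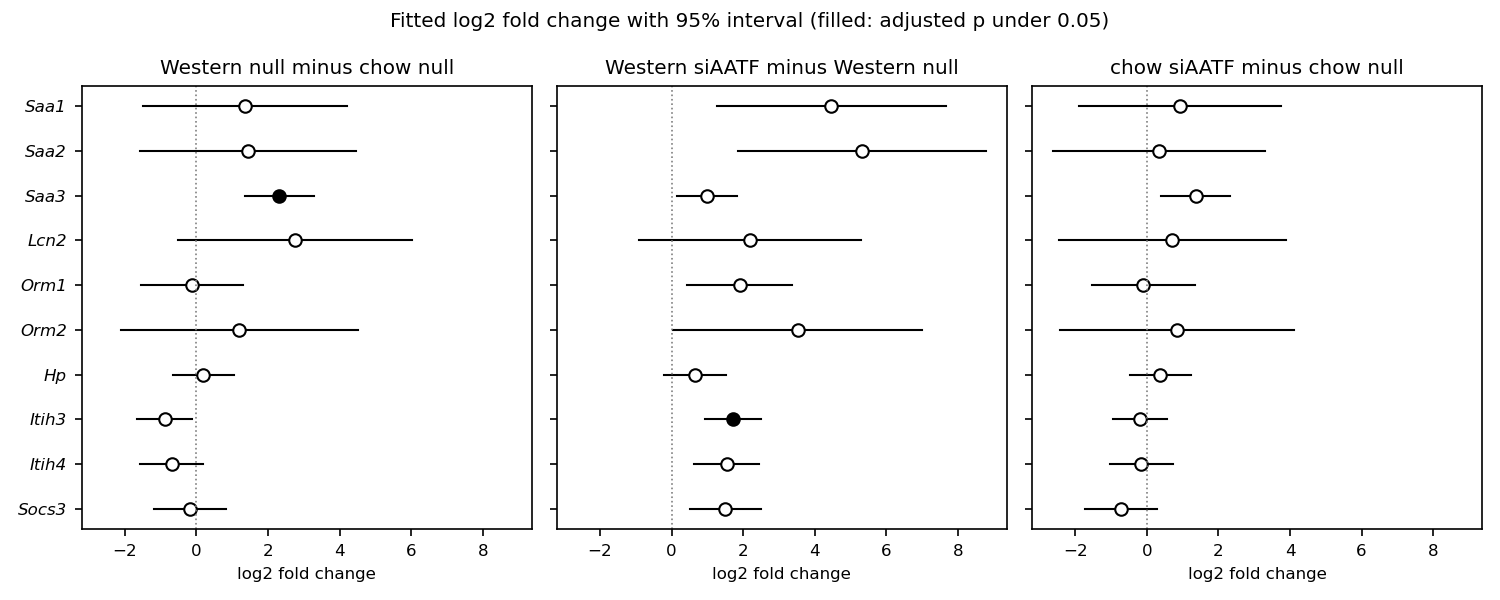
Fitted log2 fold change of each gene in the 3 comparisons that the series names, with 95% intervals from the edgeR fit of all 12 libraries. Filled points have an adjusted p under 0.05: Saa3 in the left panel and Itih3 in the middle one. The intervals of Saa1, Saa2, Lcn2 and Orm2 are the widest in each panel.

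The last comparison that the series names asked about the silencing vector on chow. No member passed in chow siAATF against chow null, where 0 of 11934 genes passed and 285 (2.39%) had an unadjusted p under 0.05 (edgeR). DESeq2 and limma-voom called 0 members as well. Saa3 came nearest, with a log2 fold change of 1.37 ± 0.46 (edgeR unadjusted p = 0.00827, adjusted p = 1) and all 3 chow siAATF libraries above chow null, as for 4.25% of genes. Socs3 was lower in all 3 chow siAATF libraries, as were 4.32% of genes, at -0.71 ± 0.48 (edgeR adjusted p = 1). The 95% intervals of Socs3 (-1.72 to 0.30) and of the other 8 members held both directions, the widest from -2.44 to 4.12 for Orm2. Chow siAATF 3 was the highest of its group for 7 of 10 members (29.2% of all genes). Without it, the log2 fold changes of Lcn2 and Orm2 turned from 0.72 and 0.84 to -1.45 and -1.49, that of Hp from 0.38 to -0.39, and those of Saa1 and Saa2 to -0.045 and -0.18.

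A pair of further contrasts follows from the 2 by 2 design. Western siAATF against chow siAATF gave 2 of 10 members higher, beside 1.48% of all genes passing (0.763% higher): Saa3, with a log2 fold change of 1.93 ± 0.41 (edgeR adjusted p = 0.0283), and Socs3, with 2.03 ± 0.47 (0.0406). The Saa3 libraries did not overlap between these groups (9.24% of all genes lay apart and higher), whereas those of Socs3 did, since Western siAATF 3 (4.84 CPM) lay below chow siAATF 1 (5.03 CPM). Saa2 had the largest change, 6.43 ± 1.61, and did not pass (edgeR adjusted p = 0.0998). With Western siAATF 3 left out, 7 members passed (Saa1, Saa2, Saa3, Orm1, Itih3, Itih4 and Socs3), beside 5.95% of all genes. Without Western siAATF 1 and 2, none passed, and Saa3 stood at 1.01 (edgeR adjusted p = 0.437) and Socs3 at 0.23 (0.905). Leaving out chow siAATF 2, chow siAATF 3 or Western siAATF 1 also ended both calls (Saa3 adjusted p 0.164, 0.0712 and 0.102). The call of Saa3 alone was lost without Western siAATF 2 (0.057), and that of Socs3 alone without chow null 3, chow siAATF 1 or any 1 Western null library (adjusted p 0.0602 to 0.101).

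In this contrast 2 of 15 macrophage markers rose, Mpeg1 by 1.93 on the log2 scale (edgeR adjusted p = 0.0145) and Trem2 (0.0217), with summed levels of 231 to 464 CPM in chow siAATF against 496 to 1214 CPM in Western siAATF. Of 6 neutrophil markers tested, 2 rose, S100a9 (0.0325) and S100a8 (0.035). None passed in the other cell marker lists. An unadjusted p under 0.05 was reached there by 1 of 2 adipocyte and mesothelial, 0 of 6 cholangiocyte, 5 of 11 stellate cell and endothelial and 8 of 14 hepatocyte markers (edgeR). Over all genes tested in this contrast, it was reached by 1812 of 11934. When Western siAATF 3 was left out, 8 of 15 macrophage and 8 of 9 neutrophil markers passed as higher, beside 5.95% of all genes in either direction. Camp, Mpo and Ngp are among these neutrophil markers, and failed the filter on low counts in the fit of all 12 libraries. They entered the reduced fit through Western siAATF 1 and 2, where they were high, so their calls are no separate result. In the same reduced fit Pecam1 passed as higher, and Cyp2f2, Hnf4a, Serpina1e and Ttr passed as lower. None of the macrophage or neutrophil markers passed without Western siAATF 1 and 2, while Col1a1, Lyve1 and Cfd passed as higher and Pck1, Serpina1e and Tat as lower. Their part in the levels of Saa3 and Socs3 was not tested.

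The interaction of diet and vector, which tests whether the diet difference depended on the vector, was passed by no member and by 0.193% of all genes (23 genes, edgeR). By unadjusted p under 0.05 there were 4, beside 9.16% of all genes: Itih3, with an interaction of 1.91 ± 0.52 on the log2 scale (edgeR adjusted p = 0.178), Socs3 (2.21 ± 0.67, 0.280), Itih4 (1.69 ± 0.59, 0.374) and Saa2 (4.98 ± 1.92, 0.485). DESeq2 called Itih3, beside 1.04% of all genes, and limma-voom called 0 members. Without Western siAATF 3 the edgeR fit called Saa2, Orm1, Itih3, Itih4 and Socs3, beside 2.38% of all genes. The comparisons above share their control groups (chow null serves the comparisons of diet and of vector on chow, Western null those of diet and of vector on the Western diet), so their fold changes are not independent of each other.

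The spread within Western siAATF was the widest pattern in these genes. It was seen in the data first and is described without a test. Western siAATF 1 and 2 both lay above the other 10 libraries for 9 of 10 members, as they did for 3.70% of all genes tested. The lower of these 2 libraries exceeded the highest of the other 10 by 43.6-fold for Saa2, 16.6-fold for Saa1, 7.01-fold for Orm2, 5.87-fold for Lcn2 and 2.91-fold for Orm1. For Saa3, Itih3, Itih4 and Socs3 the same ratio was 1.76 to 1.99, and for Hp it was 0.815. Against Western siAATF 3 of the same group, the lower of the 2 was 171-fold higher for Saa2, 101-fold for Orm2, 84.0-fold for Saa1 and 60.0-fold for Lcn2. The ratio was 8.84 for Orm1, 4.69 for Itih4 and 3.43 for Itih3, 2.86 for Socs3, 2.23 for Saa3 and 1.79 for Hp. Western siAATF 3 lay below the Western null range for 6 members (Saa1, Saa2, Lcn2, Orm1, Orm2 and Itih4), within it for Saa3, Hp and Socs3, and above it for Itih3. Over all genes tested it lay below that range for 32.6% and above it for 32.0%.

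**Figure D3:**
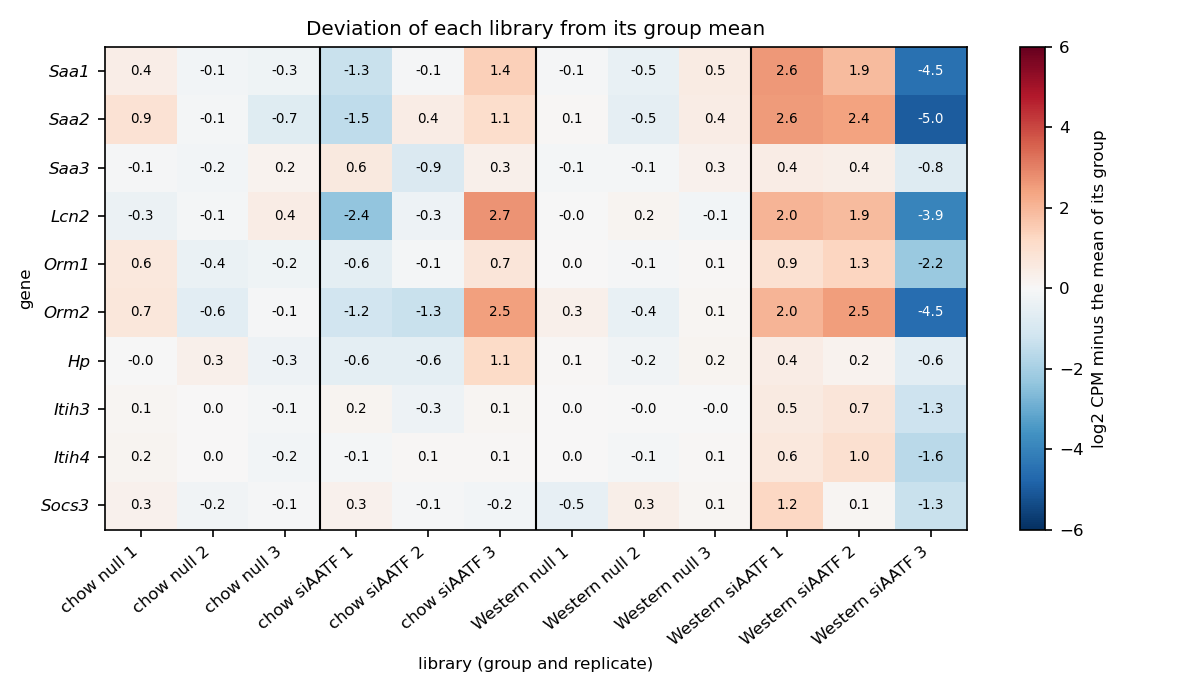
Difference of each library's log2 CPM from the mean of its group, for the 10 genes (rows) and 12 libraries (columns). Numbers in the cells and the colours give the same value, on the log2 scale. The column of Western siAATF 3 is negative in all 10 rows, most in Saa2, Saa1 and Orm2, and those of Western siAATF 1 and 2 are positive in all 10.

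Likeness within groups was measured as Pearson's r between 2 genes' deviations from their group means in log2 CPM over the 12 libraries, as a description. The median r over all pairs of members was 0.78, from 0.30 for Hp and Socs3 to 0.99 for Saa1 and Saa2. This value rested on Western siAATF 3. Without that library the median r was 0.33, with a lowest pair of -0.57, and leaving out any other library gave 0.77 to 0.88. Among 9113 other genes ranked, the 5 whose deviations were most like those of the members were Isyna1 (mean r 0.87), Steap4 (0.85), Efhd2 (0.85), Tifa (0.84) and Vrk1 (0.84). None of these 5 stayed among the first 5 without Western siAATF 3. The libraries share depth, 18S content and makeup, which enter every pair.

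Other positive acute phase genes showed part of the same pattern. Of 23 tested on a list of 24, 12 had Western siAATF 1 and 2 above all other libraries, beside 3.70% of all genes. Apcs, serum amyloid P, held 21.2 to 31.0 CPM in Western null and 233.5, 480 and 8.80 CPM in Western siAATF 1 to 3. Fgl1, a fibrinogen-like protein of hepatocytes, held 184 to 225 CPM in Western null and 1518, 2078 and 104 CPM in Western siAATF. In Western siAATF against Western null, Fga, the fibrinogen alpha chain, was the 1 gene of the list that passed, at 1.44 ± 0.32 on the log2 scale (edgeR adjusted p = 0.0442). The list's median was 0.92. Fga held 8464, 8108 and 3696 CPM in Western siAATF and 2307 to 2727 CPM in Western null, so all 3 libraries were higher. Without Western siAATF 3, Fga stood at 1.72 (edgeR adjusted p = 0.000255) and 13 of 23 passed, all higher (list median 1.21). Without Western siAATF 1 and 2, Fga stood at 0.57 (0.454), 1 of 24 passed, Steap4 as lower, and the list median was -0.35.

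In Western null against chow null, 6 of 23 of these genes passed, beside 13.2% of all genes. The fibrinogen chains fell: Fga by 1.64, Fgb by 1.72 and Fgg by 1.72 on the log2 scale (edgeR adjusted p 0.00362, 0.00901 and 0.00508). Hamp, the iron hormone hepcidin, fell by 1.75 (0.0116), while Orm3 (2.54, 0.0207) and the endotoxin co-receptor Cd14 (2.11, 0.0169) rose, and the list's median was -0.33. In Western siAATF against chow siAATF, Orm3 (4.50, edgeR adjusted p = 0.00742) and the protease inhibitor Serpina3n (1.71, 0.0438) rose. They stood without Western siAATF 3 at 4.86 (5.17e-05) and 2.07 (0.000257), and 11 of 23 passed, all higher. Without Western siAATF 1 and 2, Orm3 stood at 2.92 (0.0393) and Serpina3n at 0.21 (0.832). In that fit 4 of 24 passed, Orm3 and Il1rn as higher and Crp and Fgl1 as lower.

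No negative acute phase gene passed in Western siAATF against Western null. Of 10 tested, 1 had an unadjusted p under 0.05 in the edgeR test (median log2 fold change -0.02), and their summed level was 67130, 66670 and 56020 CPM in Western siAATF against 62580 to 70180 CPM in Western null. Of the 10, 2 had Western siAATF 1 and 2 below all other libraries, beside 3.16% of all genes. These were the thyroid hormone carrier Ttr, with 1999 and 1582 CPM against at least 2622 CPM elsewhere, and the apolipoprotein Apoa2, with 1597 and 1999 CPM against at least 2386 CPM. The list median was 0.16 without Western siAATF 3, and Fetub passed as higher. It was -0.22 without Western siAATF 1 and 2, and none passed. Nor did any pass in Western siAATF against chow siAATF, with 3 at an unadjusted p under 0.05, beside 1812 of 11934 genes tested (edgeR). There Ttr and Apoa2 passed as lower without Western siAATF 3, and Itih2 without Western siAATF 1 and 2. In Western null against chow null, Fetub fell by 1.10 (edgeR adjusted p = 0.0102) and Itih2, a further inter-alpha-trypsin inhibitor chain, by 0.92 (0.0448).

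**Figure D4:**
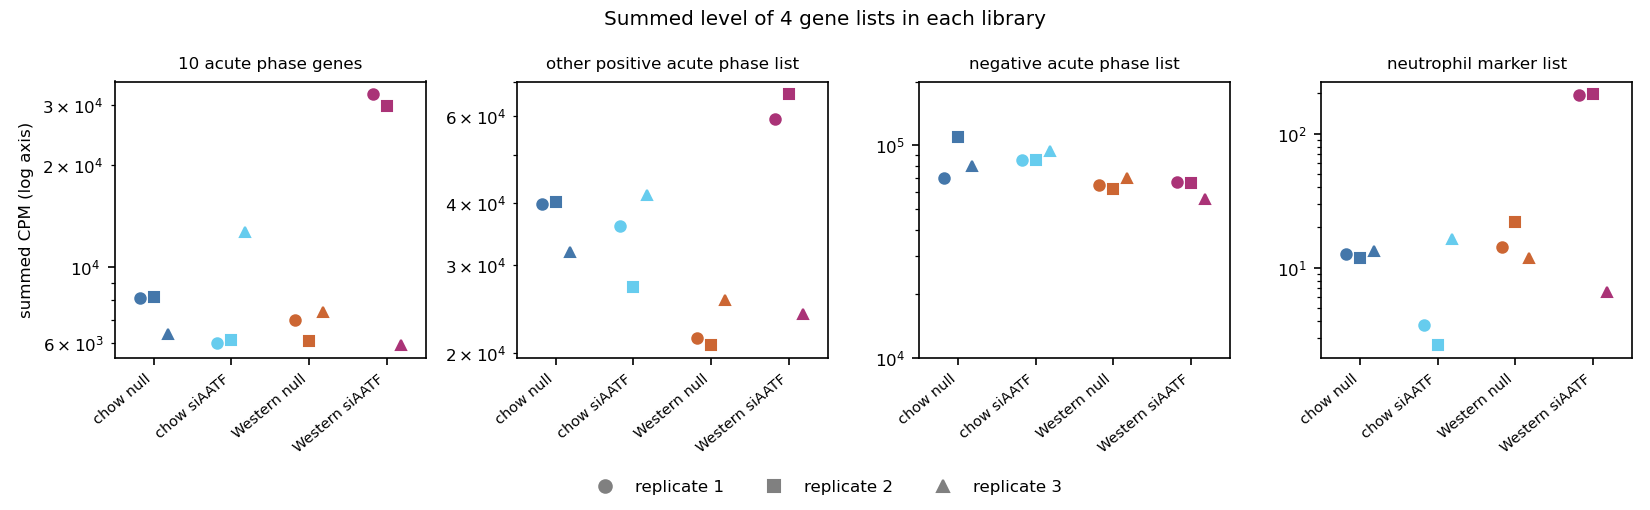
Summed CPM of 4 gene lists in each library, on log axes that differ between panels. In Western siAATF 1 and 2 the 10 genes, the other positive acute phase list and the neutrophil marker list stand above the other 10 libraries, and the negative acute phase list does not.

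Of the IL-6 and STAT3 list (20 tested of 25), none passed in Western siAATF against Western null, and 2 had an unadjusted p under 0.05 (edgeR), beside 10.7% of all genes. None passed without Western siAATF 3 either, and Il6ra alone passed, as lower, without Western siAATF 1 and 2. In Western null against chow null 3 of 20 passed, beside 13.2% of all genes, and all 3 fell: the receptor gene Lifr by 1.48, Stat3 by 1.18 and the hepatocyte factor Hnf4a by 0.77 (edgeR adjusted p 0.00361, 0.0296 and 0.0451). Stat3 held 166, 147 and 59.4 CPM in Western siAATF 1 to 3 and 88.1 to 98.3 CPM in Western null. All of these lay below chow null 2, its highest library, at 276 CPM. Of the IL-1, TNF and NF-kB list (21 tested of 24, Lcn2 among them), none passed in the vector comparison or in its 2 reduced fits, with 2 at an unadjusted p under 0.05 (edgeR). Under the diet 2 of 21 passed, again beside 13.2% of all genes. The NF-kB feedback gene Tnfaip3 rose by 1.73 (0.0296) and the receptor subunit Il1rap fell by 0.87 (0.0234). In Western siAATF against chow siAATF no gene of either list passed. Without Western siAATF 3, the receptor genes Osmr (2.18, edgeR adjusted p = 0.0125) and Il1r1 (1.82, 0.0173) rose there. Hnf4a fell by 0.90 (0.0345), and 5.95% of all genes passed. Without Western siAATF 1 and 2, Osmr stood at -1.82, Il1r1 at -0.66, Il6ra at -2.08 and Il1rn at 3.54. Osmr held 0.880 CPM in Western siAATF 3, the library kept, under its floor of 1.32 CPM. Il6 and Il1b are listed at 0 in every library and were not analysed here.

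Neutrophil markers moved with the same libraries. Their summed level over 14 genes was 196 and 197 CPM in Western siAATF 1 and 2, 6.60 CPM in Western siAATF 3, 11.9 to 13.4 CPM in chow null, 2.65 to 16.3 CPM in chow siAATF and 11.9 to 21.8 CPM in Western null. In Western siAATF 1 and 2, 0 of 14 were at 0, and 11 of 14 lay above the other 10 libraries, beside 3.70% of all genes tested. Only 6 of the 14 passed the filter on low counts, 5 of them among the 11, and the others rest on few reads: Ly6g had 1 and 2 counts in these libraries and at most 1 elsewhere. In Western siAATF 3, 6 of 14 were at 0, as were 2 to 8 in chow null, 2 to 11 in chow siAATF and 3 to 8 in Western null. Of the 6 tested, 0 passed in Western siAATF against Western null, 3 had an unadjusted p under 0.05 and the median log2 fold change was 2.75 (edgeR). Without Western siAATF 3, 6 of 9 tested passed, all higher. Camp, Mpo and Ngp, among these 6, failed the filter in the fit of all 12 libraries. They entered this fit through Western siAATF 1 and 2, where they were high, so their calls are no separate result. Without Western siAATF 1 and 2 the median log2 fold change of the 6 tested was -2.72. That value rests on Western siAATF 3 alone, where the 14 markers held 15 reads in all. S100a8 and Mmp9 were at 0 there, and Ltf and Csf3r at 0.440 CPM, under that library's floor of 1.32 CPM. S100a9, a subunit of calprotectin, held 53.3, 88.5 and 1.76 CPM in Western siAATF and at most 3.05 CPM elsewhere. Lcn2 is itself a granule protein of neutrophils as well as a product of hepatocytes. The share of the 18S gene also differed among these libraries, at 19.8%, 50.8% and 0.871% in Western siAATF 1, 2 and 3. The part of either in the levels of the 10 genes was not tested.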

How the data were processed

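Per the labels' protocols, liver RNA came from an AllPrep extraction and was turned into libraries by SMART-Seq. The deposited table holds whole-number counts of reads per gene, which the authors made with STAR 2.7.11 and featureCounts 2.0.1 on GRCm39 and compared with DESeq2 1.42.0 in R 4.3.2, per the submitters' processing notes. How featureCounts treated strand and reads shared by copies is not given in the sources used here. Gene lengths in the table span whole genes, so introns were counted. None of the 10 genes overlaps another gene in the table. All 12 columns of sample values were matched to the labels (0 were left unmatched).

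Counts were scaled with TMM in edgeR 4.0.16 (R 4.3.3). Genes were kept by filterByExpr and tested with edgeR's quasi-likelihood test (robust, 1 mean per group, 8 residual degrees of freedom) in 1 fit of all 12 libraries, adjusted by Benjamini-Hochberg over all genes of a comparison, with a threshold of 0.05. The code was tested on simulated counts. The members and the gene lists were chosen with earlier results of these data known, so list counts and medians carry no test. All 10 members are named, along with up to 4 genes of each list by adjusted p among those that passed, all that passed where they were 5 or fewer, and the 5 genes of at least 5 CPM most like the members within groups. Cell type marker lists are given as counts and sums. Apcs, Fgl1, Stat3, Timd4 and the genes given by library were chosen after their values were seen.

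Alternatives were RLE library sizes, DESeq2, limma-voom (limma 3.58.1), other filters, the 18S gene left out, the compared groups alone, a replicate block, libraries with over 25% 18S left out, and each library left out in turn. Leaving out Western siAATF replicates 1 and 2 together, and giving the lists with and without these libraries, was added after seeing the data. Same-numbered replicates did not deviate together (median r -0.05), so the numbers were not used as pairs. Promoters came from RefSeq (GRCm38.p6), where 8 of 10 members had an entry, and transcripts from GENCODE. Replicates of 1 group differed beyond counting error (lowest ratio of chi-square to degrees of freedom 10.9 over tested genes), so no library was treated as a second sequencing of another. Library preparation enters this ratio as well, so it does not tell separate mice from repeated preparations of 1 mouse. Counts carry no molecular identifiers, so floors cover counting error only.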

Additional observations from a re-analysis of the deposited data

How the results depend on the processing

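Precision was limited by 3 libraries a group, by low counts of Saa3 and Socs3, and by the spread within Western siAATF. The libraries over 25% 18S were chow null 1 and 2, chow siAATF 1 and Western siAATF 2. Without them chow null 3 alone stood for its group, so fewer libraries and less 18S cannot be told apart in that fit. The number of members past the threshold was 1 in Western null against chow null, and it was 5 with no low-count filter, 7 in the compared groups alone, 0 without libraries over 25% 18S, 3 without Western siAATF replicates 1 and 2, and 1 to 3 with each library left out in turn. In Western siAATF against Western null it was 1, with 4 by DESeq2, 0 by limma-voom, 8 with no low-count filter, 0 in the compared groups alone, 0 without libraries over 25% 18S, 0 without Western siAATF 1 and 2, and 0 to 6 with each library left out. In Western siAATF against chow siAATF it was 2, with 5 by DESeq2, 1 by limma-voom, 7 with no low-count filter, 0 in the compared groups alone, 0 without libraries over 25% 18S, 0 without Western siAATF 1 and 2, and 0 to 7 with each library left out. For the interaction it was 0, with 1 by DESeq2, 8 with no low-count filter and 0 to 5 with each library left out. It was 0 in chow siAATF against chow null under all 22 alternatives. With the replicate number as a block it was 1 (Saa3) for the diet under the null vector and 0 in the 4 other contrasts. The block thus ended the calls of Itih3 under the vector on the Western diet (edgeR adjusted p = 0.0976) and of Saa3 (0.0544) and Socs3 (0.0862) in Western siAATF against chow siAATF. The labels' numbers did not pair the samples (correlations of same-numbered libraries from -0.378 to 0.259). The median likeness of members was 0.33 to 0.88 with each library left out.

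Directions turned as follows, in log2 fold changes, and the cause was not tested. Without Western siAATF 1 and 2, Western siAATF against Western null gave -1.76 for Saa1, -1.59 for Saa2, -3.20 for Lcn2, -0.93 for Orm1, -2.80 for Orm2, -0.058 for Hp, -0.43 for Itih4 and -0.29 for Socs3. Against chow siAATF it gave -1.35 for Saa1, -0.50 for Saa2, -1.18 for Lcn2, -0.98 for Orm1, -2.46 for Orm2, -0.26 for Hp, -0.49 for Itih3 and -0.99 for Itih4. The interaction gave -2.70 for Saa1, -1.93 for Saa2, -3.90 for Lcn2, -0.84 for Orm1, -3.62 for Orm2, -0.45 for Hp and -0.28 for Itih4. In chow siAATF against chow null, limma-voom gave -0.58 for Lcn2 and -0.38 for Orm2. Without libraries over 25% 18S, Orm1 was 0.50 and Itih4 0.13 there, Orm1 was 0.21 in Western null against chow null, and the interaction of Hp was -0.42. With each library left out, Orm1 ran from -0.32 to 0.25 in Western null against chow null. In chow siAATF against chow null the ranges were -0.49 to 0.29 for Orm1, -0.045 to 1.36 for Saa1, -0.18 to 0.96 for Saa2, -1.45 to 1.25 for Lcn2, -1.49 to 1.37 for Orm2 and -0.39 to 0.67 for Hp. The interaction of Hp ran from -0.028 to 1.04.

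Genes tested numbered 11934 in the main edgeR fit, 11900 by DESeq2 and 22289 with no low-count filter. Of the last, 1969 passed in Western null against chow null. Over all genes, the number past the threshold moved by more than 1.5 times as well. It was 1577 in Western null against chow null, with 1031 without libraries over 25% 18S, 2455 without Western siAATF 1 and 2, and 658 at the lowest with 1 library left out. It was 104 in Western siAATF against Western null, with 285 by DESeq2, 572 with no low-count filter, 53 in the compared groups alone, 64 under the block, 209 without Western siAATF 1 and 2, and 26 to 413 with 1 library left out. In Western siAATF against chow siAATF it was 177, with 513 by DESeq2, 836 with no low-count filter, 17 in the compared groups alone, 71 under the block, 103 without libraries over 25% 18S, 405 without Western siAATF 1 and 2, and 34 to 737 with 1 library left out. For the interaction it was 23, with 124 by DESeq2, 9 by limma-voom, 331 with no low-count filter, 14 under the block, 3 without libraries over 25% 18S, 92 without Western siAATF 1 and 2, and 2 to 295 with 1 library left out. In chow siAATF against chow null it was 0, with 1 by DESeq2, 33 with no low-count filter and 1 without Western siAATF 1 and 2.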

Other observations

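A few genes of the cell marker lists stood out in 1 or 2 libraries of the same group. They were chosen after their values were seen. Marco, a scavenger receptor of Kupffer cells, held 180.2, 99.9 and 6.60 CPM in Western siAATF 1 to 3, against 2.43 to 7.84 CPM in Western null and 7.14 to 79.9 CPM in chow null. Cfd, the adipocyte protease adipsin, held 102 CPM in Western siAATF 3 and at most 5.11 CPM in any other library, while Adipoq, another adipocyte gene, was at 0 in that library. Des, the muscle and stellate cell filament desmin, held 175 CPM in Western siAATF 1 and at most 11.3 CPM elsewhere.

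Il1r1, the IL-1 receptor, and Osmr, the oncostatin M receptor, were lower in Western siAATF 3 than in Western null, as were 32.6% of all genes tested. They held 33.5 and 0.880 CPM there, against at least 94.9 and 5.43 CPM. The value of Osmr lay under the floor of detection, 1.32 CPM in that library. Il1rn, the IL-1 receptor antagonist, stood highest in that library, at 10.6 CPM, with the lower of Western siAATF 1 and 2 at 2.88 CPM.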
